A study of Mus musculus with 6 samples.

Results

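The fatty acid elongases and desaturases described here are 10 listed genes, Elovl1, Elovl3, Elovl4, Elovl5, Elovl6, Elovl7, Scd1, Scd2, Fads1 and Fads2. Every array probe annotated to a RefSeq transcript of these genes was taken, which gave 12 probes, 2 each for Elovl1 and Elovl4 and 1 for each of the others. Of the 10 genes, 9 passed the filter on dim probes and were tested among 15306 genes, and Elovl4 did not pass. RNA came from inguinal white adipose tissue (iWAT), a subcutaneous fat depot in which brown-like, or beige, adipocytes can form. Expression was measured on 6 one-colour Agilent arrays, 3 from wild-type (WT) mice and 3 from their Zip13-KO littermates. Both genotypes were on the C57BL/6J background after backcrossing for at least 7 generations, and both received powdered food because Zip13-KO mice lack some teeth. The Zip13-KO allele removes exons of Slc39a13, which encodes the zinc transporter ZIP13, by way of a Neo cassette. It was made in R1 embryonic stem cells and is carried in every tissue, so adipose tissue is not its only site. The mice were 10 weeks old per the study's text. Their sex, and which of the study's feeds they had, were not given in the sources used here. The study's text gives n = 3 for mice of each genotype in this measurement, though the labels tie no array to an animal.

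Fatty acid synthase releases mainly palmitate, a saturated acid, and the membrane enzymes of the endoplasmic reticulum then lengthen and desaturate it. An elongase (ELOVL) carries out the condensation that starts each elongation cycle, in which a carbon pair is added, and the family members differ in the chain lengths and the saturation they accept. A desaturase places a double bond at a set position, with electrons from cytochrome b5. In adipose tissue these steps set the balance of palmitate, stearate and oleate in stored triglyceride, and Elovl3 is known as a gene induced in brown fat by cold.

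Slc39a13 was measured first as a check of the labels. The 3 WT arrays averaged 10.96 ± 0.30 (SD) in normalized log2 intensity and the 3 Zip13-KO arrays 6.63 ± 0.15 (SD), a log2 difference of -4.33 (SE 0.17, limma adjusted p = 0.00128). Where its probe lies relative to the deleted exons was not established. All arrays lay on 1 slide, with no saturated spot. Spots well above background were 62.5%, 63.2% and 62.8% on the WT arrays and 60.4%, 59% and 58.8% on the Zip13-KO arrays. Median processed signal was 39.2, 40.6 and 39.8 in WT and 33.2, 35 and 34.6 in Zip13-KO. The WT arrays lay in column 1, rows 1 to 3, and the Zip13-KO arrays in column 1, row 4, and column 2, rows 1 and 2. Slide position and these signal differences therefore cannot be told apart from genotype. The 8 adipocyte markers, among them Adipoq, Fabp4 and Plin1, were well above background in at least 1 genotype and all were tested. In bulk tissue, fewer cells of a type and less RNA per cell cannot be told apart.

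Elovl3, Elovl6, Scd1 and Fads1 rose in Zip13-KO iWAT, at a limma adjusted p under 0.05 and more than 1.5-fold, and none of the 9 tested genes fell by that rule. Elovl6 rose 5.30-fold, Scd1 1.96-fold and Fads1 1.51-fold, the last just past the fold threshold. Elovl3 had the largest measured difference of the 9, 28.6-fold, but it passed the filter only through the Zip13-KO arrays, since 1 of the 3 WT arrays was not well above background. Its fold therefore rests on dim WT spots, with log2 changes from 2.62 to 4.84 over the processing alternatives, and it had no value where a probe had to be above background on all 6 arrays. These 4 of 9 stand beside 10.2% of all tested genes called higher, and the 0 of 9 beside 8.28% called lower and 18.5% called in either direction. With the filter on all 6 arrays, which left Elovl3 out, 3 of the genes were called higher, beside 1540 of all 14633 genes tested. Elovl3 is included in the 4 of 9 and in the counts and median below. With no fold threshold, 5 of the 9 were higher, the fifth being Elovl5, and Elovl1 and Elovl7 were lower, by 1.34-fold each. By that rule 19.3% of all tested genes were higher and 15.2% lower. Among the 9 genes, 6 had all 3 Zip13-KO arrays above all 3 WT arrays, an arrangement found for 29.2% of all tested genes, and 2 had all below, found for 25.9%. The median log2 change was 0.62 over the 9 genes and -0.001 over all tested genes. The 4 desaturases were all above 0, and of the 5 tested elongases 3 were above 0 and 2 below, beside 49.9% of all tested genes above 0.

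**Figure D1:**
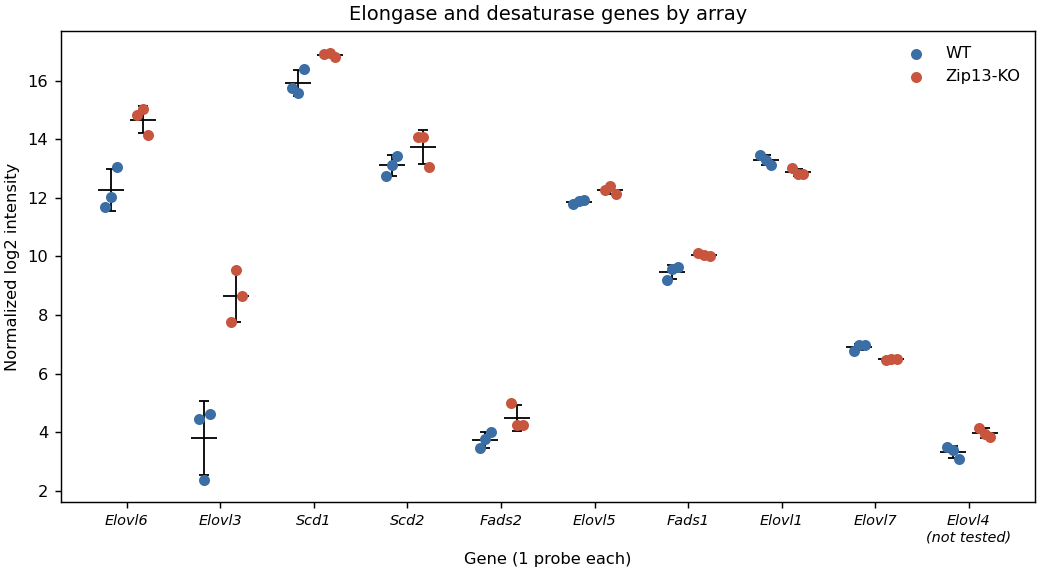
Normalized log2 intensity (y axis) of the genes, by gene (x axis), with 1 point for each of the 3 WT and 3 Zip13-KO arrays and a line at each group's mean with SD bars. The points of Elovl3, Elovl6, Scd1 and Fads1 lie higher in Zip13-KO with no overlap, those of Elovl1 and Elovl7 lie lower, and those of Scd2 overlap; each gene has its own probe, so levels are not comparable between genes.

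Elovl6 lengthens palmitate to stearate, the step that links fatty acid synthase to oleate. Its normalized log2 intensity was 11.68, 12.04 and 13.06 on the WT arrays and 14.82, 15.02 and 14.14 on the Zip13-KO arrays. The genotypes did not overlap, and WT replicate 3 and Zip13-KO replicate 3 were the arrays nearest to each other. The log2 change was 2.41 (SE 0.40, 95% interval 1.43 to 3.39, limma adjusted p = 0.00993), the rank 16 among 15306 genes from the largest rise. The gene stayed called when any 1 array was left out, with log2 changes from 2.11 to 2.81.

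Elovl3 makes saturated and monounsaturated very long-chain acids and is known from brown fat and sebaceous glands. On the WT arrays its normalized log2 intensity was 4.45, 2.36 and 4.63, and on the Zip13-KO arrays 7.77, 9.53 and 8.66. WT replicate 2, the lowest, was not well above background, while the other 2 WT arrays and all 3 Zip13-KO arrays were. In processed signal before normalization the WT arrays read 23.2, 5.52 and 26.7 and the Zip13-KO arrays 200.4, 681 and 377. The genotypes did not overlap, and the spread within each was wider than for any other tested member, with SDs of 1.26 in WT and 0.88 in Zip13-KO. The log2 change was 4.84 (SE 0.72, 95% interval 3.09 to 6.59, limma adjusted p = 0.00782). Because the gene entered the test only through the group where it was high, neither this p nor the place of Elovl3 among all genes is given weight here, and the size rests on how dim WT spots are treated. With WT replicate 2 raised to the lowest signal well above background on its array the change was 4.55, and with normexp background correction 2.62. The deposited value table and spots without background correction both gave 2.98. Elovl3 remained called in each of these, with the same entry through the Zip13-KO arrays, so these calls are given no weight either.

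Scd1 is the main stearoyl-CoA desaturase of adipose tissue and forms oleate and palmitoleate. Its normalized log2 intensity was 15.74, 15.57 and 16.41 on the WT arrays and 16.90, 16.94 and 16.80 on the Zip13-KO arrays. The Zip13-KO arrays lay within a narrow range above all WT arrays, and none of the spots was saturated. The log2 change was 0.97 (SE 0.22, 95% interval 0.44 to 1.5, limma adjusted p = 0.0208). The call was lost without WT replicate 1 (adjusted p = 0.0513) and without Zip13-KO replicate 1, 2 or 3 (0.0699, 0.0711 and 0.0549), with log2 changes from 0.81 to 1.24 over all omissions.

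Scd2 encodes a second stearoyl-CoA desaturase, best known from brain and from young animals. It read 12.75, 13.12 and 13.44 on the WT arrays and 14.06, 14.06 and 13.06 on the Zip13-KO arrays, in normalized log2 intensity. Zip13-KO replicates 1 and 2 lay above all WT arrays, and replicate 3 lay inside the WT range. The log2 difference was 0.62 (SE 0.32, 95% interval -0.16 to 1.40, limma adjusted p = 0.173), which did not pass. Without Zip13-KO replicate 3 it was 0.95 with an adjusted p of 0.0383, past both thresholds. The Scd genes are close relatives in sequence, and how far their probes share targets was not tested.

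**Figure D2:**
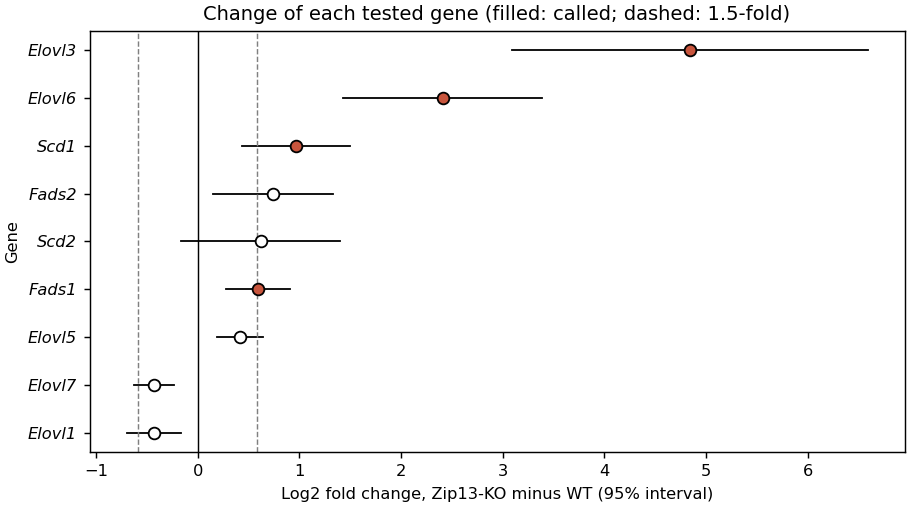
Log2 fold change of each of the 9 tested genes (x axis, Zip13-KO minus WT, bars are 95% intervals), with filled points for called genes and dashed lines at 1.5-fold. Elovl3 at 4.84 and Elovl6 at 2.41 stand far to the right, Fads1 at 0.59 lies on the threshold, and the interval of Scd2 includes 0.

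Fads1 and Fads2 desaturate polyunsaturated acids, Fads2 at the entry of the route from linoleic and linolenic acid and Fads1 at the step that yields arachidonic acid. Fads1 read 9.19, 9.56 and 9.62 in normalized log2 intensity on the WT arrays and 10.12, 10.03 and 10 on the Zip13-KO arrays. The genotypes were separate, with less spread in Zip13-KO than in WT. The log2 change was 0.59 (SE 0.13, 95% interval 0.28 to 0.91, limma adjusted p = 0.0189), against a threshold of 0.58. It fell short of that threshold without WT replicate 1 (0.46) and missed the adjusted p without Zip13-KO replicate 1, 2 or 3 (0.0708, 0.0619 and 0.0511). Normexp gave 0.57, just short of the threshold.

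Fads2 was dim, at 3.46, 3.77 and 4.0 on the WT arrays and 4.98, 4.23 and 4.24 on the Zip13-KO arrays. All of its spots were well above background, and Zip13-KO replicate 1 was the highest by a margin. The log2 difference was 0.74 (SE 0.24, 95% interval 0.15 to 1.33, limma adjusted p = 0.0588) and was not called. It passed with 75th percentile scaling (0.75, adjusted p = 0.0400), and was 0.21 with normexp and 0.27 in the deposited table.

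Elovl5 lengthens the polyunsaturated products of Fads2. It read 11.79, 11.88 and 11.91 on the WT arrays and 12.28, 12.41 and 12.14 on the Zip13-KO arrays. The groups were separate by more than the WT spread. The log2 difference of 0.42 (SE 0.09, 95% interval 0.19 to 0.64, limma adjusted p = 0.0201) passed the p threshold and, at 1.33-fold, missed the fold threshold. Without Zip13-KO replicate 1 or 2 (adjusted p = 0.0717 and 0.0690), or with the replicate number as a block (0.0574), it missed the p threshold too.

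Elovl1, the widely expressed elongase that supplies saturated very long chains for sphingolipids, was lower in Zip13-KO on both of its probes. The brighter probe read 13.45, 13.30 and 13.13 on the WT arrays and 13.00, 12.81 and 12.80 on the Zip13-KO arrays, in normalized log2 intensity. The other read 10.30, 10.09 and 9.97 against 9.80, 9.56 and 9.71. Neither probe had overlapping genotypes, and both gave a log2 difference of -0.43, with limma adjusted p = 0.0317 and 0.0347 over probes. The gene fit gave an adjusted p of 0.0311, and under 75th percentile scaling the difference was -0.31 with an adjusted p of 0.0677. The adjusted p was also above 0.05 without WT replicate 1 or 2 (0.0579 and 0.0749) and without Zip13-KO replicate 1, 2 or 3 (0.0561, 0.102 and 0.0928). Both probes report on the same RNA and are not replicates.

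Elovl7, an elongase of saturated long-chain acids, read 6.78, 6.97 and 6.98 on the WT arrays and 6.47, 6.49 and 6.49 on the Zip13-KO arrays. The Zip13-KO values nearly coincided and lay below all WT values. The log2 difference was -0.43 (SE 0.08, 95% interval -0.63 to -0.23, limma adjusted p = 0.0137), short of 1.5-fold. The adjusted p was 0.0559 without Zip13-KO replicate 1 and 0.0541 without replicate 2.

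Elovl4, the elongase of the longest chains in retina, skin and brain, was near background. Its brighter probe was well above background on 2 of 3 WT arrays and 2 of 3 Zip13-KO arrays and read 3.48, 3.38 and 3.08 against 4.14, 3.94 and 3.83. The other probe was above background on no array. Without the filter, the brighter probe had a log2 difference of 0.66 (limma adjusted p = 0.0327), so its exclusion rests on the filter.

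For the separated genes, an exact two-sided permutation test over single genes can give no p below 0.10 with 3 arrays against 3, and it gave 0.10. For Scd2 the exact permutation p was 0.30. Differences of change between members were set up as 6 pairs within arrays. Elovl6 changed by 1.99 (log2) more than Elovl5 and by 2.83 more than Elovl1, and Elovl3 by 2.43 more than Elovl6, each with all Zip13-KO arrays above all WT arrays (exact permutation p = 0.10, adjusted 0.20). The Scd1 to Scd2 difference was 0.35 with an SD of 0.51 among the Zip13-KO arrays (exact permutation p = 0.60, adjusted 0.72). The Fads1 to Fads2 difference was -0.15 (exact permutation p = 0.90) and had no settled sign. It was 0.36 with normexp, 0.31 without background correction and in the deposited table, and 0.06 without Zip13-KO replicate 1. Normexp added an offset of 50, and the other 2 settings follow the median signal, background included. Processed signal of Fads2 was only 11.8 to 28.5, and a constant added to so dim a signal shrinks its log2 difference. Scd1 to Fads1 was 0.38 (exact permutation p = 0.20, adjusted 0.30). None of the 6 pairs could reach 0.05 in this design. The Elovl3 to Elovl6 difference was 0.24 with normexp and 0.60 in the deposited table.

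Promoter sequence is shown for 3 members that differ in their change, Elovl6 (2.41 on the log2 scale), Elovl5 (0.42) and Elovl7 (-0.43). RefSeq promoter windows (mouse build GRCm38.p6) matched 6 of the 10 genes, Elovl1, Elovl4, Elovl5, Elovl6, Elovl7 and Fads2. The 250 bases before the annotated start are printed 5′ to 3′ on the strand of the gene, with motif letters in capitals. The letters searched, on both strands, were those of the CCAAT box (as in its name), the GC box (GGGCGG), the TATA box (TATAAA), a sterol response element (TCACCCCAC) and the E-box (CACGTG).
Elovl6 promoter, chr3:129532136-129532385 (+): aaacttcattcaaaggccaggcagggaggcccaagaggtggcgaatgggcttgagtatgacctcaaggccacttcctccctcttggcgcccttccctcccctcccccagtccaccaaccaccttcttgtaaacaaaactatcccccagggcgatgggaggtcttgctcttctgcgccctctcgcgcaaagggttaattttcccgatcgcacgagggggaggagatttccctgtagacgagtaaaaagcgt
Elovl5 promoter, chr9:77917115-77917364 (+): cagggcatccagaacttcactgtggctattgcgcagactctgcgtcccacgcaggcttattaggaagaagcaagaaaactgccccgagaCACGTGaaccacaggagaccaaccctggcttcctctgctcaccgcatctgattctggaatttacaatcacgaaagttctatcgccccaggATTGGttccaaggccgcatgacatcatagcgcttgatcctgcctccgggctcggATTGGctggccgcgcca
Elovl7 promoter, chr13:108214154-108214403 (+): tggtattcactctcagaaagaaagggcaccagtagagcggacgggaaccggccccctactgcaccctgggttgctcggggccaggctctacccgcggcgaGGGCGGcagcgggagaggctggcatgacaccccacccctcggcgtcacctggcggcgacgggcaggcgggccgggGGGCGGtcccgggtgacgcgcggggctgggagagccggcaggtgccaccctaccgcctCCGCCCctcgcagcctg
The Elovl6 window held none of these letters. In the Elovl5 window, CCAAT stood 2 times on the minus strand (printed as ATTGG) and CACGTG 1 time, and the Elovl7 window held GGGCGG 3 times, 1 of them as CCGCCC on the minus strand. Over 32851 windows of the same length, CCAAT was present in 33.8%, GGGCGG in 32.7%, TATAAA in 12.4%, TCACCCCAC in 0.496% and CACGTG in 6.02%. A match describes the letters in a window and is not a binding site.

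The elongases and desaturases act with partners, and 6 lists of such genes were described. Their counts stand beside 10.2% of all tested genes called higher, 8.28% called lower and 49.9% above 0. Users of long-chain products, with 1 of 10 called higher, were near that share. Palmitate supply showed the most calls: 7 of its 9 genes rose, none fell, and all 9 log2 differences were above 0, with a median of 1.33. Fasn, fatty acid synthase, rose by 1.74 (limma adjusted p = 0.0142), the mitochondrial citrate carrier Slc25a1 by 1.66 (0.0127), Acss2 by 1.63 (0.0319), Acacb by 1.56 (0.00739) and Me1, the malic enzyme, by 1.33 (0.0212). ATP citrate lyase Acly rose by 1.31 (0.0411) and Acaca, acetyl-CoA carboxylase, by 1.28 (0.0134). Mid1ip1 had the smallest difference, 0.45. The count called higher was 1 without Zip13-KO replicate 1 and 2 without replicate 2.

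Of the 6 tested elongation cycle partners, Hsd17b12, the ketoacyl-CoA reductase, rose by 0.96 (limma adjusted p = 0.0146) and Tecr, the enoyl-CoA reductase, by 0.94 (0.0095), while Hacd4, a dehydratase family member, fell by 1.34 (adjusted p = 0.0413). Hacd4 was 11.00 on WT replicate 1 and 9.72 and 9.57 on the other WT arrays, against 8.54 to 8.99 in Zip13-KO. That call was lost without WT replicate 2 or any Zip13-KO array. Tecrl was below background.

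Among 6 tested genes of the other elongases and desaturases, Scd3 rose by 1.62 (limma adjusted p = 0.0202) and the sphingolipid desaturase Degs2 by 0.90 (0.0046), though Degs2 was dim at 4.0 in WT. Fads6 was lowest at -0.97 and did not pass, and Elovl2 was below background. Fads6 was dim, and well above background on 3 WT arrays but only 1 Zip13-KO array, so it entered the test through WT. Its Zip13-KO arrays read 1.96, 4.13 and 3.53, so the size of its difference rests on dim spots. Of 5 tested electron donor genes for the desaturases, Cyb5b rose by 0.89 (0.0252), and Cyb5r4 was lowest at -0.16.

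Regulators of these genes numbered 11, of which 5 rose, with a median log2 difference of 0.54. The nuclear receptor Ppara rose by 2.03 (limma adjusted p = 0.00914), Insig1, a sterol-responsive retention protein, by 1.53 (0.01), and Srebf1, which encodes SREBP-1, by 1.29 (0.0443). Mlxipl, which encodes ChREBP, rose by 1.24 (0.0421) and Pparg by 1.13 (0.0141). Srebf2, the sterol pathway counterpart of Srebf1, was lowest at -0.13. The count called was 2 without Zip13-KO replicate 1 and 3 without replicate 2 or 3. Of 10 tested users of long-chain products, Dgat1 rose by 0.99 (0.00983), while Soat1, which esterifies cholesterol, fell by 1.27 (0.00548) and the ceramide synthase Cers6 fell by 1.12 (0.0211). Dgat2 was highest at 1.04 (adjusted p = 0.0692) and was not called. Among the called pathway genes, Hacd4, Soat1 and Cers6 were the ones that were lower.

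**Figure D3:**
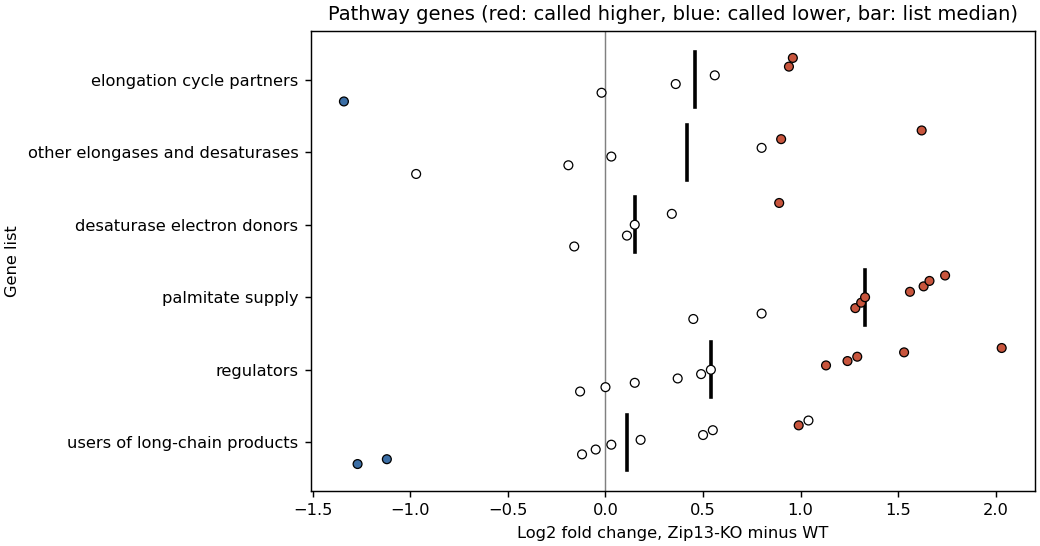
Log2 fold change (x axis, Zip13-KO minus WT) of every tested gene in the 6 pathway lists (y axis), red where called higher, blue where called lower, with a bar at each list's median. Palmitate supply lies wholly above 0 with a median of 1.33, and users of long-chain products spread to both sides with a median of 0.11.

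Markers of other cells moved with genotype beside these changes. Counts of the marker lists also stand beside 10.2% of all tested genes called higher, 8.28% called lower and 49.9% above 0. Of 10 brown and beige adipocyte markers, 8 rose, led by Ucp1, the uncoupling protein, at a log2 change of 5.16. Their summed signal was 40900 to 62700 in WT and 168000 to 257000 in Zip13-KO, and Tmem26 was lowest at -0.93. Of 8 macrophage markers, 7 fell, Fcgr1 most at -2.57, with summed signals of 70700 to 111000 in WT and 35400 to 43700 in Zip13-KO. The adipocyte markers had a median of 0.63, close to the 0.62 of the 9 tested elongases and desaturases. All 8 were above 0, 5 with a limma adjusted p under 0.05, and 2 were called higher. Their summed signals were 384000 to 530000 in WT and 616000 to 649000 in Zip13-KO. On WT replicate 1 the adipocyte list stood 0.41 (log2) below its WT mean. Among the WT arrays, Elovl5, Elovl6, Elovl7, Scd2, Fads1 and Fads2 were lowest there, while Elovl1 was highest there. Scd1 and Elovl3 were lowest on WT replicate 2, where the adipocyte list stood 0.27 above its WT mean. Skeletal muscle markers were not called. Their median was 2.21 above the WT mean on Zip13-KO replicate 3, against -0.06 and 0.72 on the other Zip13-KO arrays. Zip13-KO replicate 3 had the lowest Elovl1, Elovl5, Elovl6, Scd1, Scd2 and Fads1 of that genotype, but not the lowest Elovl3, Elovl7 or Fads2. Without that array, Elovl3 (4.83) and Elovl6 (2.66) stayed called, Scd1 (limma adjusted p = 0.0549) and Fads1 (0.0511) did not, and Scd2 was called. Elovl4 (0.73) then passed the filter, but only through the Zip13-KO arrays, the group where it was higher. Its call there is therefore given no weight.

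Of the remaining lists, endothelium had 2 of 6 called higher and stromal progenitors and fibroblasts 2 of 7 called lower. Lymph node markers had no calls, but all 7 tested were below 0, 2 with an adjusted p under 0.05, and the list median was lower on every Zip13-KO array (-0.48, -0.33 and -0.30) than on the WT arrays (-0.11 to 0.20), relative to the WT mean. Mammary epithelium markers and skin and sebaceous gland markers had no calls. The 4 tested genes of the skin and sebaceous gland list were all above 0, with a median of 0.48, and Krt1 was above background on no array. The 1 limma adjusted p under 0.05 was that of Lor, an epidermal gene that was dim at 4.16 in WT (0.53, adjusted p = 0.0462). Mc5r, the sebaceous gland marker of the list, differed by 0.42 with overlapping genotypes (limma adjusted p = 0.394). The list is mostly epidermal and says little of sebaceous glands, from which Elovl3 is also known. The part of these cell types in the elongase and desaturase differences was not tested.

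**Figure D4:**
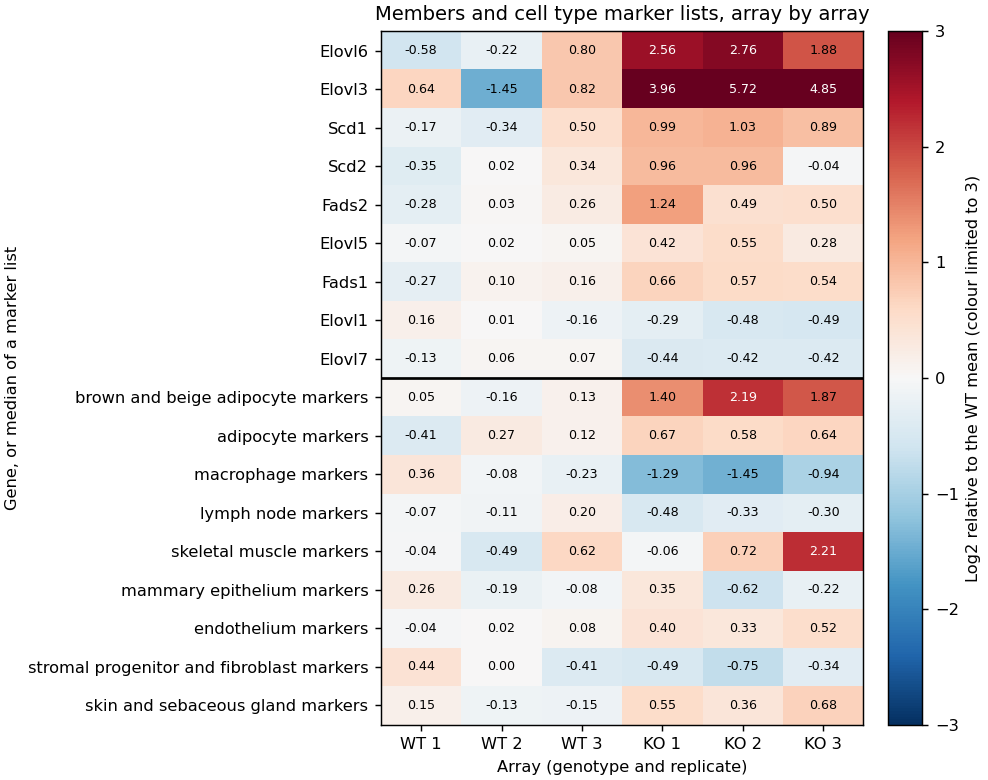
Log2 value relative to the WT mean (colour) on each of the 6 arrays (x axis) for the 9 tested genes and for the median of each marker list (y axis). Elovl3 and Elovl6 and the brown and beige list are high on all 3 Zip13-KO arrays, the macrophage list is low there, and the muscle list stands at 2.21 on Zip13-KO replicate 3.

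Genes whose normalized log2 values ran most like those of Elovl3 over the 6 arrays were Pdk4 (Pearson r = 0.9968), Zfp174 (0.9964), Galc (0.9952), 1700123K08Rik (0.9927) and Hcfc2 (0.9925). For Elovl6 they included Fabp5 (0.9968), Mrpl45 (0.9964), Mettl22 (0.9964) and Dus4l (0.9961). The 6 arrays share the genotype split, which raises such values, and they are given as a description. Those of Elovl3 also rest on its value of 2.36 on WT replicate 2, which was not well above background. The changes of these genes were smaller than those of Elovl3 and Elovl6, with log2 differences of 1.25 for Pdk4, a kinase that inhibits pyruvate dehydrogenase, and 0.91 for the fatty acid binding protein Fabp5.

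All 174 log2 differences of the 10 genes recomputed with other processing or without an array kept their sign. Settings that changed only the threshold, the variance model, the test or the block repeated the reported difference, so their sign could not change. Over the processing alternatives Elovl6 ranged from 2.37 to 2.52 and Elovl3 from 2.62 to 4.84. Elovl6 was called in each, while Scd1 and Fads1 were not in some of them. Elovl3 was called where it had a value. Except in the setting without a filter, those calls share its entry through the Zip13-KO arrays and are given no weight.

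**Figure D5:**
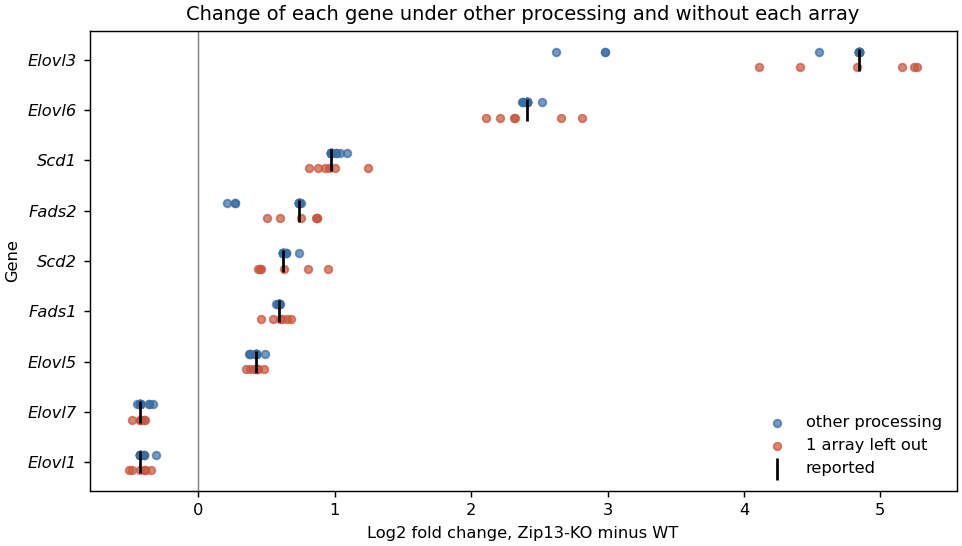
Log2 fold change of each of the 9 tested genes (x axis) as reported (black tick), under other processing (blue points) and with 1 array left out (red points). Every point keeps the side of 0 of the reported value. Settings that changed only the threshold, test, variance model or block repeat that value. Elovl3 has the widest range, 2.62 to 5.27.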

How the data were processed

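RNA of 3 WT and 3 Zip13-KO iWAT samples was hybridised by the authors to Agilent SurePrint G3 Mouse arrays, 1 colour (Cy3), and read with Feature Extraction 11.5.1.1. The deposited scanner files hold intensity per spot: the processed signal, background-subtracted by that software, and the median signal. A deposited value table holds log2 values by the authors; its scale follows the median signal. Here log2 processed signal was taken, control and outlier spots were left out, spots of a probe were averaged, and arrays were quantile normalized (limma 3.58.1, R 4.3.3), as in the study's methods. The filter kept a probe that every array of WT, or every array of Zip13-KO, read as well above background (33046 of 55681 probes). Probes were named by RefSeq accession (GRCm38.p6, 50.9% of probes), and the brightest kept probe stood for a gene. One limma fit over 15306 genes gave Zip13-KO minus WT, with Benjamini-Hochberg adjustment over all of them, and a call needed adjusted p under 0.05 and over 1.5-fold. It took the place of the study's own test, which joins a t-test and a median-ratio test. The fit was tested on simulated data.

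The genes and lists were chosen with earlier results of these data known. Named were all 10 genes with every probe, Slc39a13, the called genes and both extremes of each list, and the 5 genes most like Elovl3 and Elovl6, of which 1 is not reported here. Pathway lists, marker lists and pairs of genes are described by counts and medians, with exact permutation tests for pairs. Alternatives were the scaling, background correction (on median signal, as the files hold no mean signal), filter, probe choice, thresholds, variance model, t-test, replicate block and each array left out. The number of arrays limits the precision. Probe sequences were not used here.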

Additional observations from a re-analysis of the deposited data

How the results depend on the processing

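With 3 arrays a genotype, calls near a threshold moved easily. Of 566 recomputed values, 464 kept their direction and side of the threshold or, for counts, stayed within 1.5 times, 78 no longer passed or fell further in count, 17 newly passed or rose further, 3 moved and 4 reversed. Dim spots limit Elovl3, Fads2 and Elovl4. The cause was not tested.

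Scaling to the 75th percentile gave Fads2 at 0.75 (called) and 3 users of long-chain products called higher. Normexp gave Fads1 0.57, a Fads1 to Fads2 difference of 0.36 (reversed), an Elovl3 to Elovl6 difference of 0.24 and 1 user lower. No background correction gave Fads1 0.58, Fads1 to Fads2 0.31 (reversed), Elovl3 to Elovl6 0.59 and 1 other elongase or desaturase higher. The deposited table gave 0.58, 0.31 (reversed) and 0.60 for the same 3 values. Without a filter Elovl4 was called at 0.66, and cycle partners had 0 lower, electron donors 0 higher and regulators 3 higher. The mean of a gene's probes gave 1 regulator lower. Raising Elovl3 to the signal floor (4.55) was chosen after seeing the data. The filter on all 6 arrays gave no value for Elovl3.

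At adjusted p under 0.01, 2 of the genes stayed called, Scd1 (0.97) and Fads1 (0.59) not, with 704 higher and 500 lower over all genes, against 1565 and 1267. Counts higher were then 1 cycle partner, 1 other elongase or desaturase, 0 donors, 1 palmitate supply gene and 1 regulator, with 0 cycle partners and 1 user lower. With no fold threshold Elovl1 (-0.43), Elovl5 (0.42) and Elovl7 (-0.43) passed, 2 of the genes were lower, and 2951 genes were higher and 2330 lower, with 4 cycle partners, 8 regulators and 3 users higher. A plain t-test after Benjamini-Hochberg, which is not the study's combined test, called 2 of the genes, not Scd1 (0.97) or Fads1 (0.59). It called 1002 genes higher and 709 lower, with 1 cycle partner, 1 other, 0 donors, 1 palmitate and 2 regulators higher, and 0 cycle partners and 1 user lower.

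With the replicate number as a block, 2 of the genes (2 of their probes) were called, Scd1 (0.97) and Fads1 (0.59) not, with 1 other elongase or desaturase, 4 palmitate supply genes and 3 regulators higher, 0 cycle partners and 1 user lower. Same-numbered arrays did not deviate together (correlations -0.02, 0.04 and -0.08). With 3 arrays a genotype this cannot show whether the arrays were paired, and the labels do not say.

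Leaving out 1 array at a time, 2 to 4 of the genes and 2 to 4 of their probes were called higher, and over all genes 951 to 1651 higher and 759 to 1463 lower. The ranges were 1 to 3 cycle partners, 1 to 3 others, 0 to 1 donors, 1 to 7 palmitate, 2 to 5 regulators and 1 to 2 users higher, and 0 to 1 cycle partners and 1 to 2 users lower. Log2 changes ranged from 0.81 to 1.24 for Scd1, 0.44 to 0.95 for Scd2 and 0.46 to 0.68 for Fads1. Elovl4 passed the filter, and so had a value, only without WT replicate 3 (0.54) or without Zip13-KO replicate 3 (0.73). The Fads1 to Fads2 difference ranged from -0.27 to 0.06, reversed without Zip13-KO replicate 1, and Scd1 to Scd2 from 0.05 to 0.50. Calls over all genes fell by over 1.5 times without Zip13-KO replicate 1 (951 higher, 759 lower) or 2 (1007 and 779).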
